A study of Mus musculus with 9 samples.

Results

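The RNA exosome degrades and trims RNA from its 3′ end. Its core is a ring of RNase PH-like subunits (Exosc4 to Exosc9) closed by a cap of RNA-binding subunits (Exosc1, Exosc2 and Exosc3), and Exosc10 is an exonuclease that joins it in the nucleus. In nonsense-mediated mRNA decay (NMD), the helicase UPF1 is phosphorylated (p-UPF1) on RNAs that are to be degraded, and fragments of such RNAs are substrates of the exosome. Here the mRNAs that encode the exosome were followed as possible p-UPF1 partners themselves. The 10 subunit genes, Exosc1 to Exosc10, were taken by NCBI Gene number from a table of 27179 genes. All 10 were present and all 10 passed the filter on low counts, as 13129 genes did in all.

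The cells were splenic B cells of wild-type mice, depleted of CD43+ cells and activated for 72 h with CD40L (5 ug/mL), anti-IgM antibody (10 ug/mL) and IL-4 (20 ng/mL); the study's methods give an antibody against CD40 in place of the ligand. All 3 groups came from such cells. RNA was taken from the lysate (input), from a precipitate with normal rabbit IgG, or from a precipitate with an antibody against p-UPF1, in RNA immunoprecipitation sequencing (RIP-seq), with 3 libraries in each group. The labels do not say whether libraries came from separate mice. The methods, which speak of the study in general, describe age-matched adult mice of both sexes. They call replicates biological and independent, without naming these libraries. The P values therefore rest on the spread between these libraries, estimated over all 3 groups, which may be technical. IgG libraries were less alike (r between pairs 0.963 to 0.972, log2 scale) than those of input (0.9946 to 0.9951) and p-UPF1 (0.991 to 0.992).

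Total counts ran from 17372510 to 24945286 per library, and the subunits took 0.0576% ± 0.000314 of the counts with input, 0.0593% ± 0.00147 with IgG and 0.0544% ± 0.00119 with p-UPF1 (SD, n = 3). The B cell markers Cd79a, Cd79b, Ms4a1, Pax5 and Cd22 each stood between 32.5 and 1230.5 CPM (counts scaled to a common library size), and the 5 T cell markers summed to less than 1 CPM in each library. Among 5 myeloid markers, 4 were below 1 CPM in each library, but Adgre1 stood at 127 to 138 CPM in input, was lower with IgG (85.6 to 91.3) and lowest with p-UPF1 (56.5 to 58.6). Its part in the results was not tested.

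UPF1 acts at terminating ribosomes, so the sites where translation of these mRNAs ends are shown. They are the stop codon of the principal transcript, in capitals with 12 bases on each side, for the 3 mRNAs that were higher in p-UPF1 libraries and for the one that was lowest. The sequences were read from GENCODE M21 (build GRCm38, the mm10 assembly), 5′ to 3′ on the strand of the gene.
Exosc2, chr2:31680568-31680570, plus strand: gaccaggagggaTGAggccgagagctg
Exosc4, chr15:76329713-76329715, plus strand: tcactgggggacTGAgtggcaaccacc
Exosc6, chr8:111057190-111057192, plus strand: gccgccccacccTGAttggaaaaaacc
Exosc7, chr9:123136001-123136003, plus strand: gggttcctggggTGAtttctctccact
All 4 reading frames end with TGA, which also ends the frame of 51.6% of the 11866 principal transcripts with a full stop codon among the genes tested.

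GENCODE also lists transcripts of the NMD class, which stop early. Exosc2 and Exosc4 have 1 each, and their early stops are shown because reads of such transcripts would be counted with the gene.
Exosc2 early stop, chr2:31672575-31672577, plus strand: ttgaaaaccaggTGAggacagaagata
Exosc4 early stop, chr15:76329059-76329061, plus strand: tcgagccctgccTGAccgggctctagt
The early stop of Exosc2 follows 74 codons and lies 283 bases before the last exon junction, with 5 junctions after it. That of Exosc4 follows 68 codons and lies 175 bases before the last junction. Exosc6 is encoded by a single exon and has 1 annotated transcript, so no exon junction is available downstream of its stop. NMD-class transcripts are also listed for Exosc5 (2), Exosc8 (1), Exosc9 (1) and Exosc10 (2), which were all lower in p-UPF1 libraries. Gene counts cannot tell these transcripts apart. Among all genes with a principal transcript, 47.7% of the 3493 with an NMD-class transcript and 39.7% of the 8379 without were higher with p-UPF1 than with IgG at an adjusted P under 0.05.

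To compare the precipitates, CPM values were scaled by TMM, which sets the level of a log2 fold change of 0. That level lay near the median of all genes tested in the p-UPF1 comparisons, but above it (-0.10) for IgG over input. Exosc2, Exosc4 and Exosc6 mRNAs were higher with p-UPF1 than with IgG, and the other 7 subunit mRNAs were lower. Against input the same 3 were higher and the same 7 lower. In edgeR (quasi-likelihood test, Benjamini-Hochberg adjustment over all genes, adjusted P under 0.05), 40.4% of the genes tested were higher and 42.2% lower with p-UPF1 than with IgG, and 40.8% and 42.6% were so against input. Set against these shares, 3 of 10 higher was below and 7 of 10 lower was above the share of all genes, and this difference was not tested. The largest adjusted P of the 20 values was 1.94e-05, that of Exosc10 over IgG. The median log2 fold change of the subunits was -0.71 over IgG and -0.93 over input, beside -0.03 for all genes tested in both comparisons. Both comparisons share the p-UPF1 libraries and are not independent.

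**Figure D1:**
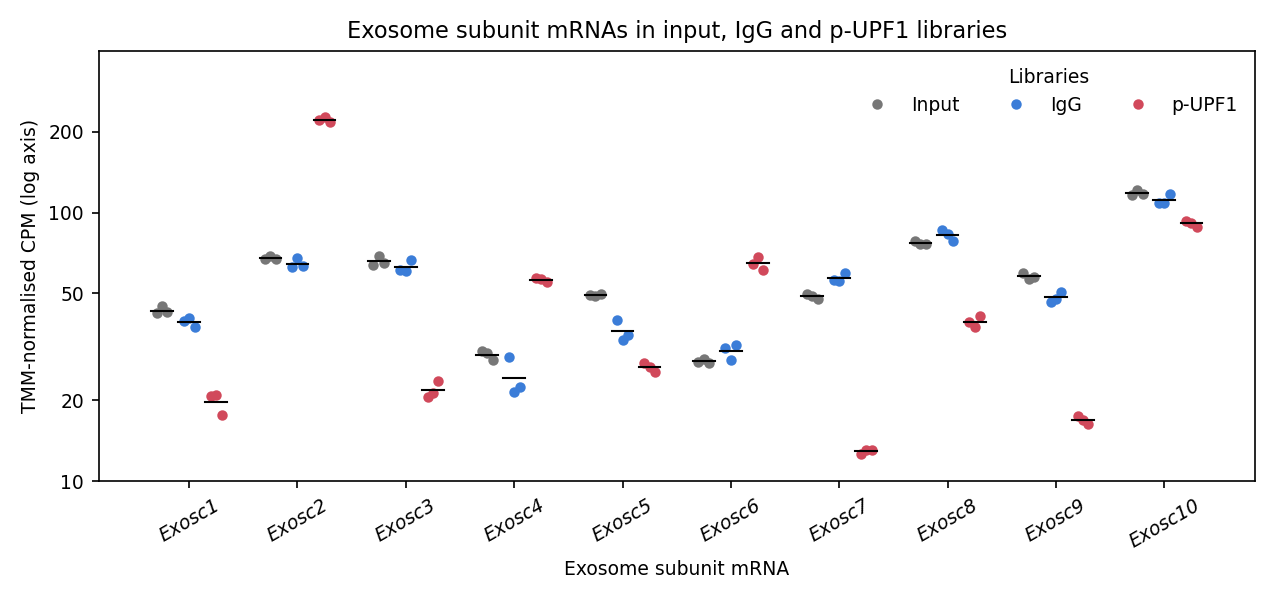
TMM-normalised CPM (log axis) of the 10 exosome subunit mRNAs in the 3 input, 3 IgG and 3 p-UPF1 libraries; points are libraries and bars are group means. The p-UPF1 points of Exosc2, Exosc4 and Exosc6 lie above all input and IgG points, and those of the other 7 lie below them.

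Among the cap subunits, Exosc2 (gene 227715, chromosome 2, 31670715 to 31681352), which helps to guide RNA into the complex, stood at 67.2, 69.0 and 67.3 CPM in input, 62.8, 67.6 and 63.0 with IgG and 221, 227 and 217 with p-UPF1. The p-UPF1 libraries were far above the others, which overlapped. It shares 54 exonic bases with Gm13427 on the opposite strand, which was not analysed here. The level was 3.44-fold that in IgG (log2 fold change 1.78, SE 0.04, adjusted P 1.06e-15, edgeR) and 3.27-fold that in input (log2 1.71, SE 0.04, adjusted P 1.21e-15). Exosc2 ranked above 90.7% of all genes tested over IgG and above 90.2% over input.

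The other cap subunits went the opposite way. Exosc3 (gene 66362, chromosome 4, 45316613 to 45320616), whose protein sits beside Exosc2 in the cap, was at 63.8, 68.8 and 64.7 CPM in input, 61.3, 60.7 and 66.4 with IgG and 20.5, 21.3 and 23.7 with p-UPF1. Over IgG the log2 difference was -1.52 (SE 0.06, adjusted P 1.08e-12, edgeR). Exosc1 (gene 66583, chromosome 19, 41922978 to 41933423) was at 42.3, 44.8 and 42.5 CPM in input, 39.5, 40.5 and 37.4 with IgG and 20.8, 20.9 and 17.7 with p-UPF1. It was lower by a log2 value of -0.98 relative to IgG (SE 0.07, adjusted P 1.30e-09, edgeR). For both mRNAs every p-UPF1 library lay below every other library.

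In the ring, Exosc4 (gene 109075, chromosome 15, 76327397 to 76330670) was at 30.5, 29.97 and 28.2 CPM in input, 29.1, 21.4 and 22.4 with IgG and 57.1, 56.7 and 55.0 with p-UPF1. The IgG libraries were uneven, with 1 at the level of input, but all p-UPF1 libraries were above them. Relative to IgG the log2 difference was 1.21 (SE 0.09, adjusted P 1.06e-09, edgeR), and relative to input 0.93 (SE 0.08, adjusted P 2.15e-08). Of the 1789 exonic bases of Exosc4, 236 are shared with Oplah on the opposite strand, which had 3 to 47 reads per library against 420 to 1356 for Exosc4.

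Exosc6 (gene 72544, chromosome 8, 111056339 to 111057664), the ring subunit made from a single exon, was at 27.7, 28.6 and 27.6 CPM in input, 31.2, 28.3 and 32.1 with IgG and 64.5, 68.2 and 61.2 with p-UPF1. Input and IgG libraries overlapped, while p-UPF1 libraries stood apart. The log2 difference came to 1.08 from IgG (SE 0.06, adjusted P 5.72e-11, edgeR) and to 1.21 from input (SE 0.06, adjusted P 1.12e-11). Single-exon genes did not share this position as a class. The 247 protein-coding genes of this kind among those tested lay at a median of -0.69 (log2, over IgG), and 30.8% were higher and 54.3% lower at an adjusted P under 0.05, as against 42.3% and 41.2% of the 11625 genes with more exons.

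The remaining ring subunits were depleted to different extents. Exosc7 (gene 66446, chromosome 9, 123113231 to 123136129) was at 49.8, 49.0 and 47.8 CPM in input, 56.2, 55.5 and 59.8 with IgG and 12.6, 13.1 and 13.1 with p-UPF1. It was the lowest of the 10 with p-UPF1, 4.42-fold lower than in IgG (log2 -2.14, SE 0.06, adjusted P 4.74e-15, edgeR) and 3.78-fold lower than in input. It ranked above only 5.32% of all genes tested over IgG and 10.5% over input.

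Exosc9 (gene 50911, chromosome 3, 36552606 to 36565727) was at 59.7, 56.7 and 57.8 CPM in input, 46.5, 47.8 and 50.6 with IgG and 17.6, 16.9 and 16.3 with p-UPF1. The log2 difference from IgG was -1.51 (SE 0.06, adjusted P 4.75e-13, edgeR). Of its 1617 exonic bases, 378 are shared with Ccna2, a cyclin gene on the opposite strand. Ccna2 had 3385 to 4404 reads per library in input, 2112 to 2645 with IgG and 909 to 1012 with p-UPF1. It thus fell in the same order as Exosc9. If strand was not used in counting, the reads of both cannot be told apart in the shared bases. The part of Ccna2 in the values of Exosc9 was not tested. Exosc8 (gene 69639, chromosome 3, 54728679 to 54735364) was at 78.1, 76.5 and 76.5 CPM in input, 86.0, 83.5 and 78.3 with IgG and 39.2, 37.4 and 41.1 with p-UPF1. Relative to IgG its log2 difference was -1.07 (SE 0.05, adjusted P 7.46e-12, edgeR). It shares 85 of 1282 exonic bases with Supt20 on the opposite strand, which had 1231 to 1742 reads per library in input and IgG and 2802 to 3127 with p-UPF1, against 828 to 931 for Exosc8 there.

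Exosc5 and Exosc10 had the smallest log2 fold changes of p-UPF1 in size. Exosc5 (gene 27998, chromosome 7, 25659153 to 25668032) was at 49.4, 49.0 and 49.9 CPM in input, 39.9, 33.6 and 35.0 with IgG and 27.6, 26.5 and 25.6 with p-UPF1, so IgG libraries were already below input. Over IgG it had a log2 fold change of -0.44 (SE 0.07, adjusted P 1.50e-05, edgeR) and over input of -0.90 (SE 0.07, adjusted P 1.49e-09). Exosc10 (gene 50912, chromosome 4, 148558419 to 148582401) was at 116, 121 and 118 CPM in input, 108, 109 and 117 with IgG and 93.0, 91.6 and 88.6 with p-UPF1. This gave a log2 fold change of -0.29 against IgG (SE 0.05) and of -0.38 against input (SE 0.05, adjusted P 8.48e-07, edgeR).

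Ordered by log2 fold change over IgG, the subunits ran Exosc2, Exosc4, Exosc6, Exosc10, Exosc5, Exosc1, Exosc8, Exosc9, Exosc3 and Exosc7. The 3 p-UPF1 libraries, each set against the mean of IgG, overlapped between Exosc1 and Exosc8 and between Exosc9 and Exosc3, and other neighbours did not overlap. These ranges leave out the spread of the IgG libraries, as those over input leave out that of the input libraries, and the log2 values of Exosc4 and Exosc6 (1.21 and 1.08, SE 0.09 and 0.06) lay close together beside their errors. Over input Exosc6 came before Exosc4, Exosc8 before Exosc1 and Exosc3 before Exosc9, and only Exosc5 and Exosc8 overlapped. All p-UPF1 libraries were above all IgG and all input libraries for 3 of the 10 subunits and below them for 7. Over the genes tested, 40.6% were above all IgG and 43.2% above all input libraries, and 41.5% and 45.0% were below them.

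**Figure D2:**
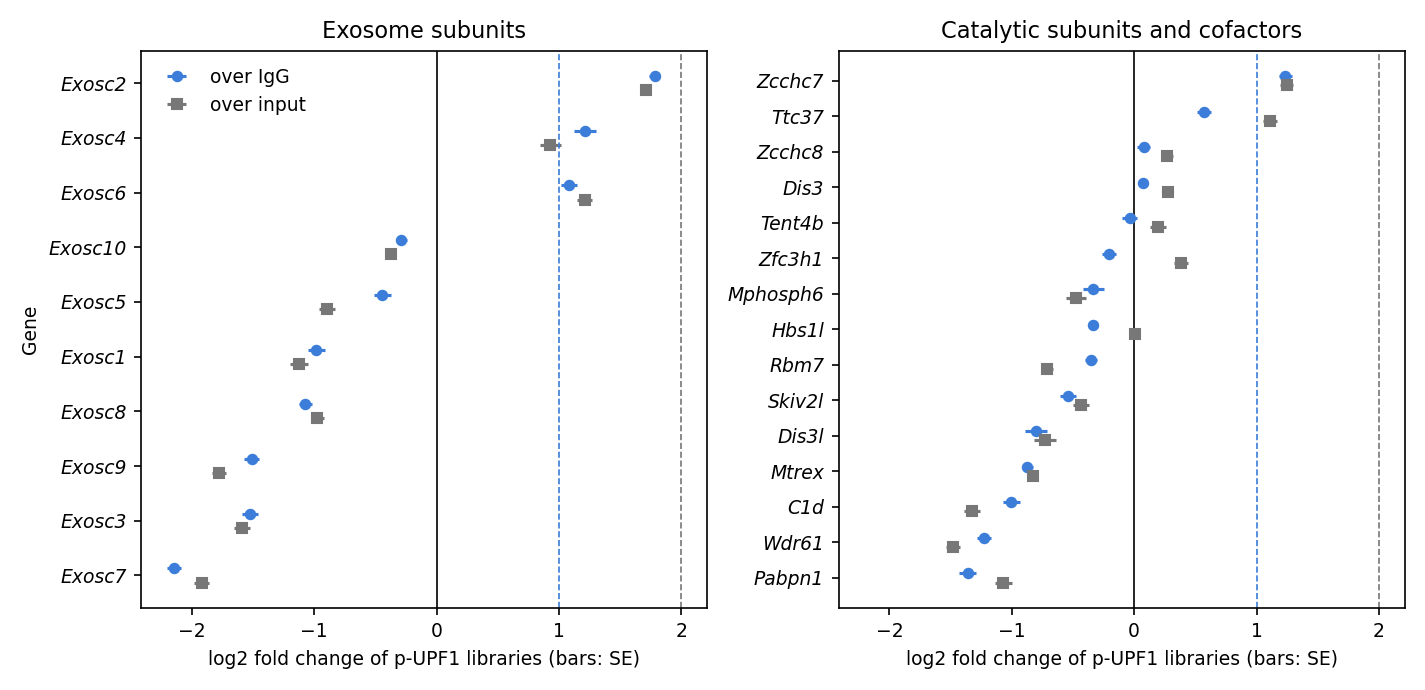
Log2 fold change of p-UPF1 libraries over IgG (circles) and over input (squares), with SE bars, for the 10 subunits (left) and 15 catalytic subunits and cofactors (right). Dashed lines mark the study's minimums of 1 over IgG and 2 over input; Exosc2, Exosc4, Exosc6 and Zcchc7 pass the first line and no gene reaches the second.

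To count as bound by p-UPF1, an RNA had in the study to exceed IgG by a log2 value of 1 or more and input by 2 or more, with adjusted P under 0.05 for each. Over IgG alone, Exosc2, Exosc4 and Exosc6 reached the minimum, where 22.2% of all genes tested did. The margin was small for Exosc6, which fell to 0.92 when libraries were scaled by their size alone, to 0.94 with upper-quartile factors and to 0.997 with an input library as the TMM reference. Over input, 0 of 10 reached the minimum, where 6.31% of all genes tested did, and Exosc2 came nearest with 1.71. Hence 0 of 10 subunits met the combined criterion in edgeR, also at an unadjusted P under 0.05, in DESeq2 and in limma-voom. Of all genes tested, 6.25% met it in edgeR. With shares as small as these, 0 of 10 does not set the subunits apart from other genes.

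Within each library the subunits can be set against one another without any scaling between libraries. Shares are parts of a whole, so a rise of any mRNA lowers the shares of the others. Exosc2 made up 11.6% ± 0.0623 of the counts of the 10 subunits in input, 11.6% ± 0.661 with IgG and 38.8% ± 0.320 with p-UPF1 (SD, n = 3). Exosc4 made up 5.04% ± 0.181, 4.37% ± 0.717 and 9.86% ± 0.0815, and Exosc6 4.77% ± 0.0363, 5.48% ± 0.284 and 11.3% ± 0.414. Together, a sum formed after their values were seen, the 3 mRNAs took 21.4% ± 0.152 in input, 21.4% ± 0.521 with IgG and 60.0% ± 0.629 with p-UPF1. The share of Exosc7 went from 8.34% ± 0.151 in input and 10.3% ± 0.324 in IgG to 2.26% ± 0.0678. In an exact permutation test, 3 libraries against 3 cannot give a two-sided P below 0.1, and none was computed. The share of Exosc5 went from 8.44% ± 0.178 in input to 6.49% ± 0.542 with IgG and 4.65% ± 0.132 with p-UPF1, so that IgG already differed from input.

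**Figure D3:**
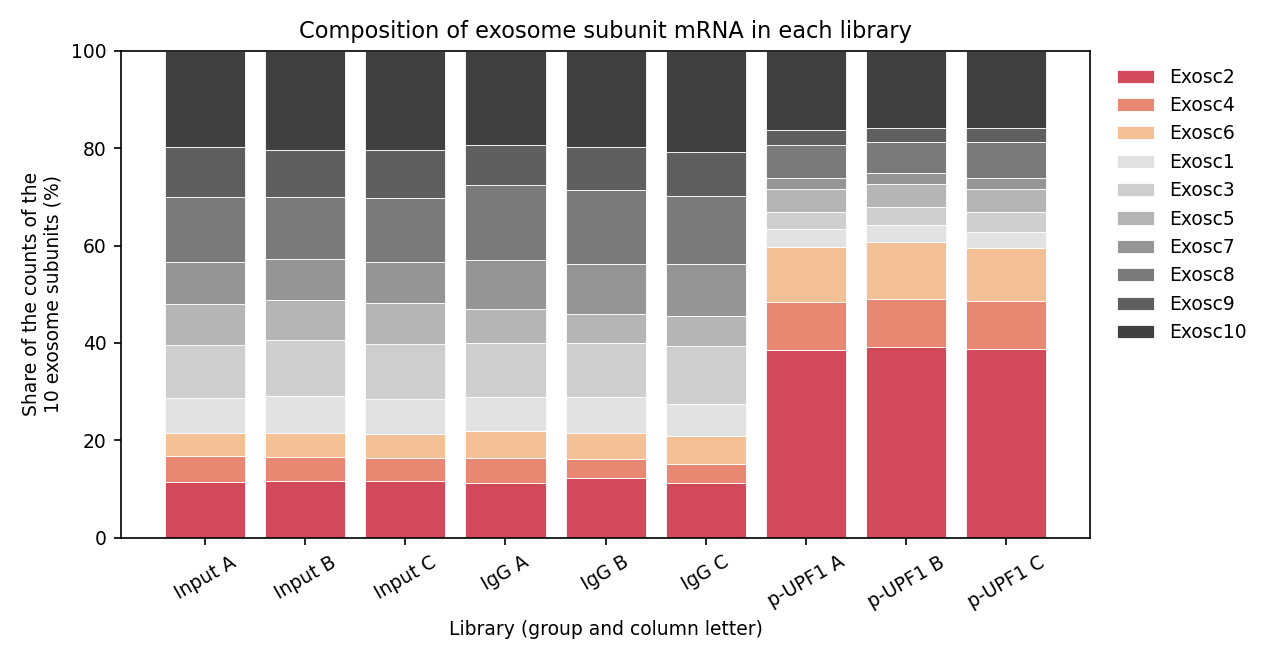
Share of each subunit (%) in the summed counts of the 10 subunits, 1 bar per library. Exosc2, Exosc4 and Exosc6 (colours), grouped after their values were seen, take 21.4% on average in input and IgG libraries and 60.0% in p-UPF1 libraries. The other subunits (greys) take the rest.

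Levels can be compared between genes only per length, here as reads per kilobase of exon after scaling to library size (RPKM), with RefSeq exons. In input Exosc3 (61.8 ± 2.55 RPKM) and Exosc8 (60.1 ± 0.700) were the highest and their libraries overlapped. Exosc6 (21.1 ± 0.395) and Exosc4 (16.5 ± 0.681) were the lowest, without overlap (SD, n = 3). The highest was 3.74 times the lowest. In such bulk RNA, fewer cells that express a gene and less RNA per cell cannot be told apart. With p-UPF1, Exosc2 (130 ± 3.08 RPKM) was the highest, followed by Exosc6 (48.7 ± 2.65). Exosc4 (31.5 ± 0.626) overlapped there with Exosc8 (30.6 ± 1.44).

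The order with p-UPF1 below Exosc2 and Exosc6 depended on the length used. With RefSeq exons Exosc7 (6.88 ± 0.134 RPKM) was the lowest, and Exosc2 was 18.9 times as high. With the length of the principal transcript, an alternative added after the values were seen, Exosc9 (10.5 ± 0.387) was the lowest, below Exosc7 (12.3 ± 0.239), and the span was 12.6-fold. Exosc10 stood at 32.6 ± 0.808 RPKM by that length, beside Exosc4 at 31.3 ± 0.623, and at 20.5 ± 0.508 with RefSeq exons. Exosc2 and Exosc6 also led by that length (131 ± 3.11 and 48.7 ± 2.65), and in input Exosc3 and Exosc8 were again the highest and Exosc6 and Exosc4 the lowest.

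The IgG precipitate served as the background of the beads and a nonspecific antibody. Against input, only Exosc7 was higher at an adjusted P under 0.05 (log2 0.22, adjusted P 0.00182, edgeR), where 18.2% of all genes tested were. Exosc5 (-0.45), Exosc4 (-0.28) and Exosc9 (-0.27) were lower, where 34.7% of all genes were, and the other 6 did not pass the test. All IgG libraries were above all input libraries for Exosc7 and Exosc8 (19.6% of all genes tested) and below them for Exosc1, Exosc5 and Exosc9 (38.5%). For Exosc5 the log2 difference of IgG from input (-0.45) was as large as that of p-UPF1 from IgG (-0.44). The values of IgG over input moved with the scale. With library size alone the median of all genes went from -0.10 to 0.01 and the part of the called genes that were higher from 34.4% to 52.6%. Exosc6 and Exosc8 were then also higher in IgG, and Exosc4 no longer passed (adjusted P 0.162, edgeR).

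The mRNAs were next compared by their annotated structure, in the principal transcript of GENCODE for 11872 of the genes tested. Exosome subunit mRNAs were short, with a median of 1471.5 bases against 2984 for all genes. Their 3′ UTRs had a median of 318 bases against 973.5. Exosc4 (962 bases), Exosc2 (779) and Exosc6 (472) were higher with p-UPF1. In the transcripts used they had 3 of the 4 longest 3′ UTRs among the subunits, the other being that of Exosc5 (927). Exosc1 had 416 bases, Exosc9 220, Exosc3 214, Exosc7 126, Exosc8 100 and Exosc10 87. Spearman's rho of 3′ UTR length with log2 fold change over IgG was 0.59 over the 10 subunits and 0.31 over the 11872 genes, given as a description since all points share the same libraries. Over the 10 subunits, mRNA length (0.70, and 0.28 over all genes) and the number of ATG triplets in the 5′ UTR (-0.67, and 0.10 over all genes) gave values of like size. The remaining features gave smaller ones over the subunits. These were 0.49 for GC content, 0.33 for GC content of the coding sequence, -0.27 for 5′ UTR length, -0.18 for exon number and -0.10 for coding length.

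The pattern depends on the transcript taken. A second principal transcript of Exosc5 ends after 240 bases of 3′ UTR, and a second coding transcript of Exosc1 has 1690. The RefSeq exons of Exosc5 total 1110 bases, against 1680 in the transcript used, and cannot hold both its coding sequence and 927-base 3′ UTR. Those of Exosc1 total 1783 bases, against 1018 in the transcript used. In the transcript used, the last junction of Exosc5 lies 11 bases after the stop codon, and in the other spliced subunit mRNAs all junctions precede it. When all genes were divided by 3′ UTR length into 10 classes of like size, the median log2 difference from IgG was -0.66 in the shortest class (around 87 bases), -0.72 around 227 bases, 0.14 around 834 and 0.59 around 1999. It was lower again in the longest classes, with 0.43 around 2781 bases and 0.20 around 4364.5. Exosc2, Exosc4 and Exosc6 lay above the interquartile range of their own class, Exosc3, Exosc7 and Exosc9 lay below it, and the other 4 lay within it. By construction a fixed share of each class lies on either side of this range, so the count of 3 and 3 is near that of any genes, and Exosc3 and Exosc9 passed its lower end (-1.49) by less than their SE.

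**Figure D4:**
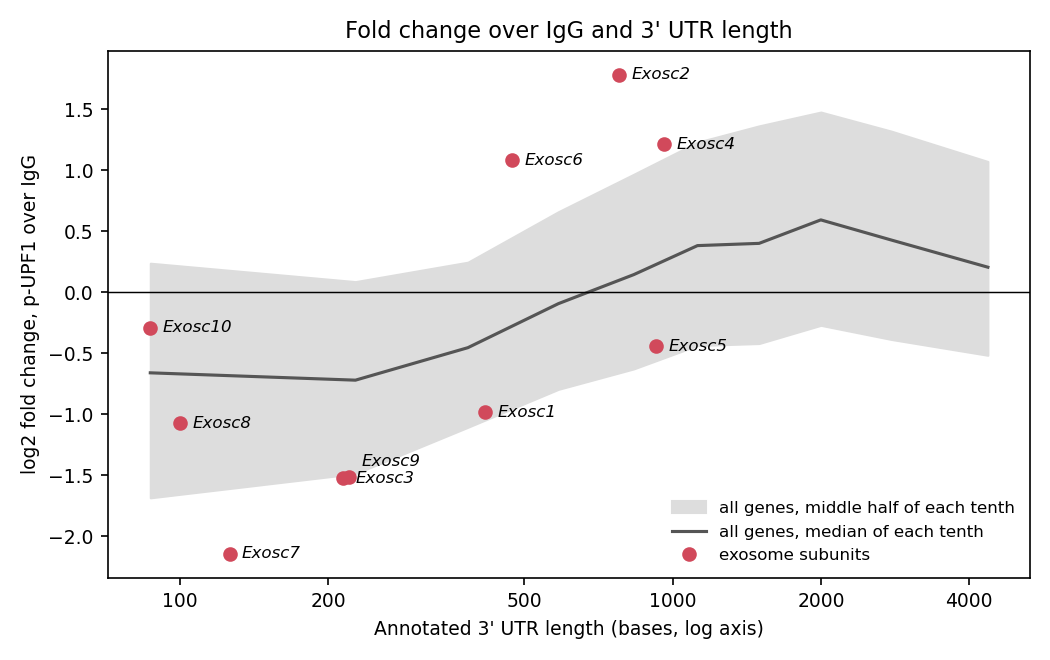
Log2 fold change over IgG against annotated 3′ UTR length (bases, log axis) of the 10 subunits (points), with the median (line) and interquartile range (grey) of 10 length classes of all 11872 genes. Exosc2, Exosc4 and Exosc6 lie above 0 at 472 to 962 bases. Exosc5 lies below 0 within that range, at 927 bases in the transcript used. Exosc1 (416 bases in the transcript used) and the 5 subunits under 300 bases also lie below 0.

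Base composition set Exosc6 apart. The GC content of its mRNA was 64.9%, above that of 99.6% of all genes, while Exosc4 had 54.9%, Exosc2 51.3%, Exosc7 51.7% and Exosc9 44.5%, the lowest. The median of all genes was 50.5%. Exosc2 and Exosc7, at the ends of the order over IgG, were thus alike in GC content. Spearman's rho of GC content with log2 fold change over IgG was 0.49 over the 10 subunits and 0.14 over the 11872 genes.

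The genes whose profile over the 9 libraries was most like that of Exosc2, by Euclidean distance of centred log2 CPM among 8991 genes of at least 10 CPM, were Cdv3 (distance 0.08), Ints3 (0.15), which encodes a subunit of the Integrator complex, and Psd4 (0.15). Those most like Exosc7 were Polr1c (0.22), a subunit of RNA polymerases I and III, Tusc3 (0.25) and Faim (0.27). No other exosome subunit was among them.

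The catalytic subunits Dis3 and Dis3l and 13 cofactors were examined beside the core. Over IgG 2 of 15 were higher and 10 lower, where 40.4% and 42.2% of all genes tested were. Over input 6 were higher and 8 lower, where 40.8% and 42.6% of all genes were. No gene of this list met the combined criterion in edgeR, also at an unadjusted P under 0.05, where 6.25% of all genes tested met it at an adjusted P. Zcchc7, a zinc knuckle protein of the nuclear polyadenylation complex that feeds the exosome, was the highest. It stood at 40.8, 38.5 and 39.5 CPM in input, 40.0, 37.7 and 42.1 with IgG and 92.8, 92.4 and 96.6 with p-UPF1, with a log2 fold change of 1.23 over IgG (SE 0.05, adjusted P 1.13e-12, edgeR). It was the only one of the 15 to reach 1 over IgG, as 22.2% of all genes tested did. Pabpn1, the nuclear poly(A)-binding protein, was the lowest at -1.36 over IgG (SE 0.07, adjusted P 9.80e-12, edgeR).

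Of the catalytic subunits, Dis3 was at 96.7, 94.5 and 92.8 CPM in input, 110, 110 and 109 with IgG and 114, 114 and 117 with p-UPF1. It did not pass the test over IgG (log2 0.07, SE 0.04, adjusted P 0.119, edgeR) and was higher than input (log2 0.28, adjusted P 6.08e-06). Its cytoplasmic relative Dis3l was lower over IgG (log2 -0.80, SE 0.09, adjusted P 2.66e-07, edgeR). Among the components of the SKI complex, which delivers cytoplasmic RNA to the exosome, Ttc37 was higher over IgG (0.57) and Skiv2l (-0.54) and Wdr61 (-1.23) were lower. The log2 fold changes of the 15 genes over IgG had an SD across genes of 0.68, beside 1.33 for the 10 subunits and 1.34 for all genes tested.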

How the data were processed

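The authors deposited raw read counts per gene for 9 RIP-seq libraries. The submitters' processing notes name cutadapt, HISAT2, featureCounts and mm10, without versions. The library kit was directional. For its RNA-seq the study states unstranded alignment, and whether RIP-seq counting used strand is not given in the sources used here. Columns carry letters, so each was assigned to a group only.

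Counts were analysed in R 4.3.3 with edgeR 4.0.16: filterByExpr (minimum count 10, minimum total 15), TMM factors, a model of 3 groups over all 9 libraries, and two-sided quasi-likelihood tests (glmQLFTest). P values of the 13129 genes were adjusted after Benjamini and Hochberg. A prior count of 0.125 entered the log2 fold changes, whose SE came from the F statistic. DESeq2 1.42.0 and limma 3.58.1 (voom) served as alternatives. The steps were tested on simulated data in which few genes changed and all groups had the same spread. That test does not cover data in which most genes differ between groups, as here. No molecular identifiers were counted, so counting error understates the true error. Symbols and exons were those of RefSeq and transcripts those of GENCODE M21, both on GRCm38. From the latter 1 protein-coding transcript per gene was taken (one tagged as first-rank APPRIS principal where there was one, then the longest coding sequence, then the longest transcript).

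Named were all subunits, cofactors that met the criterion or were highest, lowest or catalytic, genes overlapping exons of a member, and the 3 nearest profiles of the highest and lowest member. SKI genes and the comparisons of transcript structure printed were chosen after values were seen. Members and lists were chosen with earlier results of these data known.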

Additional observations from a re-analysis of the deposited data

How the results depend on the processing

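The replicate numbers of the labels are not in the table, whose columns carry the letters A, B and C in each group. With the letter as a replicate block, added after seeing the data, edgeR gave the same calls for all subunits (3 higher and 7 lower over IgG and over input, Exosc2 at 1.78 over IgG) and 5328 genes higher over IgG in place of 5299. Libraries of 1 letter did not deviate together (r from -0.02 to 0.04 over 9 pairs, 5 of them highest with their own letter). The 10 log2 fold changes over IgG and the 10 over input kept direction and call under each of 22 alternatives (other scalings, filters, tools, thresholds and prior counts, and each library left out), with 3 subunits higher, 7 lower and 0 meeting the combined criterion, also with glmTreat. Exosc2 ranged from 1.62 to 1.83 over IgG and Exosc7 from -2.31 to -2.10. IgG over input was less stable. The number of subunits higher in IgG was 2 with DESeq2 size factors and 3 with library size alone, without low-count filter, with only the groups compared, with an IgG or an input library as TMM reference, and with upper-quartile factors, against 1 as reported; leaving out each library gave 1 to 2, with 2 without IgG B or without IgG C. Under library size, no filter, only the groups compared, IgG reference and input reference in that order, 3 values that had not passed the test turned positive: Exosc10 (0.0294, 0.00217, 0.0209, 0.0142 and 0.0208), Exosc2 (0.0414, 0.0142, 0.0329, 0.0261 and 0.0328) and Exosc3 (0.0495, 0.0223, 0.0411, 0.0343 and 0.0410, and 0.00390 with upper-quartile factors). The cause was not tested. Exosc4 lost its call in IgG over input in 9 alternatives, among them without IgG B (adjusted P 0.0680, edgeR), without IgG C (0.0521) and without input A (0.0516). Calls were also gained, with Exosc10 lower without IgG C (-0.13, adjusted P 0.0210, edgeR) and Exosc1 lower without p-UPF1 C (-0.15, adjusted P 0.0477, edgeR), so that 2 to 4 subunits were lower in IgG. Total RNA recovered by each precipitate was not measured, so absolute amounts are unknown. The lowest count of a subunit in a library was 288 reads, for Exosc7 with p-UPF1.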
